A study of Mus musculus with 38 samples.

Results

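RLTR13 elements are long terminal repeats (LTRs) of the ERVK class of mouse endogenous retroviruses. They were taken here as every annotated copy of class ERVK whose subfamily name starts with RLTR13, which gave 9468 copies in 23 subfamilies out of 3793386 transposable element (TE) copies with 1225 family names. RLTR13 was chosen because several of its subfamilies had high LAP2B signal over IGG in naive wild-type cells. Values of that contrast are therefore described below without a test. The largest subfamilies were RLTR13B1 with 1045 copies, RLTR13G with 923, RLTR13C2 with 860 and RLTR13D6 with 804, and the smallest was RLTR13D with 85.

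An ERVK LTR carries the promoter and enhancer sequence of the retrovirus, and most LTRs in the mouse genome are solitary remnants left after recombination removed the rest of the provirus. In mouse embryonic stem cells such elements are kept silent by histone and DNA methylation, while some LTR families act as enhancers in other lineages, as RLTR13D5 does in trophoblast stem cells. LAP2B is a protein of the inner nuclear membrane. Together with the lamins, which form the meshwork under that membrane, and the lamin B receptor (LBR), it touches the chromatin of lamina-associated domains.

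The study mapped LAP2B by CUT&RUN, an assay in which an antibody directs a nuclease to its target and the DNA released there is sequenced. LAP2B was mapped in naive mouse embryonic stem cells (naive mESCs) and in epiblast-like cells (EpiLCs) derived from them, with 3 libraries in each of 8 groups. The genotypes were WT (no knockout), LBRKO (LBR knocked out), TKO (lamin A/C, lamin B1 and lamin B2 knocked out) and QKO (the lamins and LBR knocked out). LMNB1, which is lamin B1, and the IGG background were mapped in WT cells only, in 3 libraries per stage. The study did not use LAP2B to stand for lamina-associated domains in EpiLCs, because its signal in WT EpiLCs also fell outside them. A change in LAP2B between stages therefore need not be a change in lamina contact. The LBRKO cells were made from the WT line and the QKO cells, a single clone, from the TKO line. WT and TKO are separate lines from littermate embryos, so the spread behind a p-value is that of libraries and does not cover the choice of clone or line. Per the study's methods, TKO cells carried trisomy 8, some without the Y chromosome, and part of the WT cells had lost Y or carried trisomy 6 and 8. The number of copies of a locus in the genome cannot be told apart from the signal per copy.

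The deposited tables name each copy but give no coordinates. A total of 16 RLTR13 copies could be placed on GRCm39, because they had the same reads in all 36 libraries as a gene that covers the same 1 kb bins. The bins of all 16 aligned to those of at least 1 other placed copy (BLAST, expect value under 1e-05). The stretches printed here lie within those bins and are parts shared between the bins of different copies. Whether a stretch lies inside the annotated LTR, or covers a whole one, was not established. The first set shows what the bins of RLTR13D6 copies share with those of an RLTR13D2 copy. RLTR13D6 was the subfamily with the largest fall from naive TKO to naive QKO cells. Capitals mark a block of 54 or 55 bases that aligned among all 3.
RLTR13D6_dup595, chr12:88308345-88308528, plus strand: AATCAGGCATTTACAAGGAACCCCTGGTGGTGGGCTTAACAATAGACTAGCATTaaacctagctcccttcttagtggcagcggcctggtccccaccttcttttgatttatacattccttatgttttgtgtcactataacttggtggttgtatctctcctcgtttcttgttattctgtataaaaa
RLTR13D6_dup732, chr17:40231001-40231300, plus strand: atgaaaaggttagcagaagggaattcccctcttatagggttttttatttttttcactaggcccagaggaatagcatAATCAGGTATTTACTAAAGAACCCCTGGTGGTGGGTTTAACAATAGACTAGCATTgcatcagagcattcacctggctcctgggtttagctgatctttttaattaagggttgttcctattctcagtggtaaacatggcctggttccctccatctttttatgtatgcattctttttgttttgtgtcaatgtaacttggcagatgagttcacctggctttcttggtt
RLTR13D2_dup64, chr3:102979445-102979744, plus strand: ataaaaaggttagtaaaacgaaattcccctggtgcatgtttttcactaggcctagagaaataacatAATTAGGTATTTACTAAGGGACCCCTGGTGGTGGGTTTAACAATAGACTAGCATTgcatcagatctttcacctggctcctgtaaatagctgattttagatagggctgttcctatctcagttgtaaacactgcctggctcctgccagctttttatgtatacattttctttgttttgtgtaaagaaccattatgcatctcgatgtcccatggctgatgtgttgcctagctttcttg
The block of RLTR13D6_dup595 and that of RLTR13D6_dup732 were 92.7% identical over an alignment of 55 positions. The printed stretch of RLTR13D6_dup595 lay within the annotated gene Gm54546 but in none of its exons, that of RLTR13D6_dup732 overlapped no gene, although Gm49834, through which the copy was placed, lies in the same bin, and that of RLTR13D2_dup64 overlapped an exon of the long non-coding RNA gene Gm43062.

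The second set shows 3 copies of RLTR13C2, the third largest subfamily, from 3 chromosomes. Capitals mark a run of 24 bases identical in all 3 copies.
RLTR13C2_dup209, chr3:129148583-129148758, plus strand: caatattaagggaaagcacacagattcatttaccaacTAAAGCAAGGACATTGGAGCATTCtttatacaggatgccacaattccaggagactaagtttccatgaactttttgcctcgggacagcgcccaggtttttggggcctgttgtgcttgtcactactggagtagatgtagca
RLTR13C2_dup781, chr16:81589612-81589783, minus strand: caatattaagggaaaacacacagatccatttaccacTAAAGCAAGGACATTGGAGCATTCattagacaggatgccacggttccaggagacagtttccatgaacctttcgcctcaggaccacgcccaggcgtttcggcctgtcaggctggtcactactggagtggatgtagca
RLTR13C2_dup260, chr4:133826568-133826741, minus strand: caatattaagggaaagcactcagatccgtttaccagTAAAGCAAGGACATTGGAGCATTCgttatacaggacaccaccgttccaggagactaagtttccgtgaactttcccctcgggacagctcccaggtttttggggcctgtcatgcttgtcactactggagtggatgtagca
Over this stretch RLTR13C2_dup209 and RLTR13C2_dup260 were 89.8% identical, and RLTR13C2_dup260 and RLTR13C2_dup781 were 86.3% identical. The printed stretch of RLTR13C2_dup209 overlapped an exon of Gm42629, that of RLTR13C2_dup781 lay in Gm49558 outside its exons, and that of RLTR13C2_dup260 overlapped no gene, although Gm68746 lies in the same bin. The 6 stretches held 0 to 5 CpG sites each and 40% to 50% G and C. Stretches this alike can share short reads. The methods name primary alignments, while the study describes the signal it plots over single TE copies as coming from reads with 1 mapping position, and which of these the values used here hold is not given in the sources used here.

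A copy's value is the spike-in-scaled coverage summed over the 1 kb bins it touches, and a subfamily's value is the mean over its copies. Unless the spike-in scale is named, levels are relative: the value divided by that of the library's median TE family (for single copies, of its median copy), so that 1 is the typical family or copy. Recovered reads over RLTR13 came to 122235 to 479325 per library, the median copy had 10 to 39 reads, and 0.211% to 3.07% of copies had none. Of the 9468 copies, 2153 (22.7%) had the same reads in every library as a neighbouring copy in the table, and so share bins with it. On the spike-in scale the median of all families moved by -0.71 (naive QKO-TKO), -1.55 (naive QKO-LBRKO), -0.85 (naive TKO-LBRKO), -0.44 (EpiLC TKO-WT) and -1.05 (EpiLC QKO-WT) on the log2 scale. The relative scale removes this shift, and changes are given relative to it. The median family, unlike the mean, is not moved by the satellite family GSAT_MM, which held 22.7% to 60.2% of the sum over families.

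In naive WT cells most RLTR13 subfamilies stood above the typical family in all of LAP2B, LMNB1 and IGG. The ratio of LAP2B to IGG, which led to the choice of RLTR13 and is a description, had a median of 1.22 over the 23 subfamilies against 1.00 over all 1225 families. It was above the 90th percentile of all families, 1.18, in 15 subfamilies. RLTR13F (1.54), RLTR13E (1.48) and RLTR13D6 (1.47) were highest and RLTR13D3A1 (0.885) lowest. From medians over copies in place of means, RLTR13D6 was highest (1.39), followed by RLTR13B4 (1.38), and RLTR13E (1.23) and RLTR13F (1.22) were no longer near the top, while RLTR13D3A1 stayed lowest (0.873). A single copy, RLTR13F_dup38, held 5.13% of the sum over RLTR13F in these libraries. Other ERVK families had a median ratio of 1.02, IAP families 0.936, RLTR9 and RLTR17 families 1.24, and ETn, MusD and ERVB families 1.04. Other ERVK means every ERVK family outside RLTR13. Families of the sets named after it were not removed from it, so the sets can overlap, here and below.

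RLTR13D6 is the member the study names, among ERVK LTRs whose RNA was higher in QKO than in WT naive cells. Its naive WT LAP2B levels were 2.91, 2.79 and 2.81, a mean of 2.84 ± 0.064 (SD, n = 3), its LMNB1 levels 2.65, 3.02 and 2.63, and its IGG levels 2.10, 1.86 and 1.84. The 3 IGG libraries lay below every LAP2B and LMNB1 library, although all of them were above the typical family. RLTR13E had LAP2B levels of 2.56, 2.45 and 2.56 and IGG levels of 1.80, 1.71 and 1.61. RLTR13F had LAP2B levels of 2.56, 2.40 and 2.54 and IGG levels of 1.58, 1.64 and 1.67, and in both subfamilies the antibodies did not overlap. RLTR13 was chosen, and RLTR13E and RLTR13F were named, by this same ratio, so the gap between LAP2B and IGG follows from the choice. The choice of RLTR13 also lies behind the gap in RLTR13D6. RLTR13D5, known for its enhancer copies in trophoblast stem cells, was lower, with LAP2B levels of 1.55, 1.63 and 1.59 and IGG levels of 1.24, 1.22 and 1.23. In RLTR13D3A1 the order was the other way, with LAP2B at 1.03, 1.03 and 1.12 and IGG at 1.14, 1.22 and 1.23. Single copies varied far more than subfamily means: in naive WT LAP2B the copies of RLTR13D6 ran from 0.704 at the 5th percentile through a median of 2.72 to 9.43 at the 95th, and the highest copy reached 17.7.

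**Figure D1:**
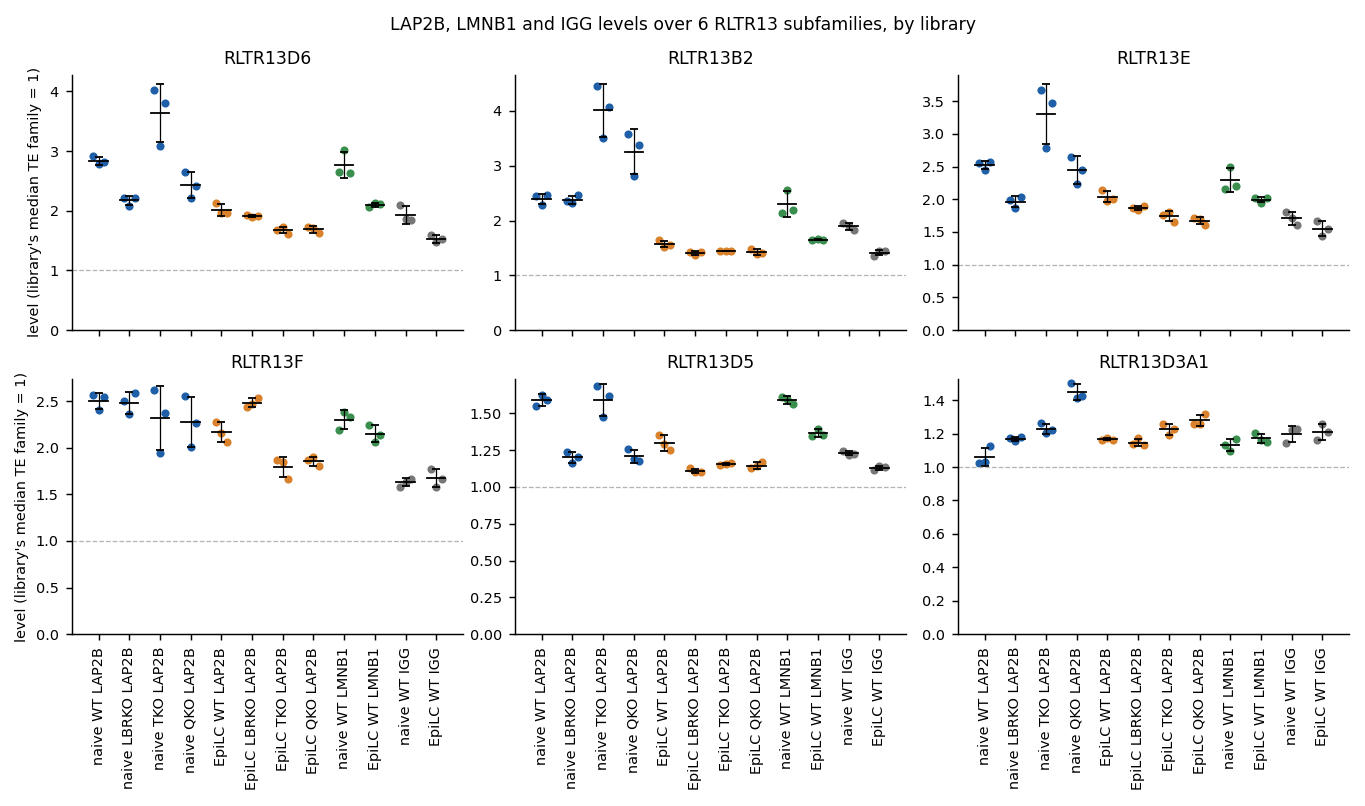
Levels over 6 RLTR13 subfamilies in each library (points; y axis, value divided by the library's median TE family, from 0; the dashed line is 1), with the mean and SD of 3 libraries as black bars, for the 8 LAP2B groups and the WT LMNB1 and IGG groups on the x axis. RLTR13D6 and RLTR13B2 were highest in naive TKO cells (3.64 and 4.01) and were lower in EpiLCs than in naive cells of every genotype, whereas RLTR13D3A1 stayed between 1.06 and 1.45 in the LAP2B groups.

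LMNB1 was not used to choose RLTR13. Across RLTR13 copies naive WT LMNB1 followed naive WT LAP2B, which was used, so naive LMNB1 values are not independent of the choice, here and below. Ranked by naive WT LMNB1, 52.4% of RLTR13 copies fell in the top quartile of all TE copies and 11.2% in the bottom quartile. The share in the top quartile was 75.9% in RLTR13D6, 73.7% in RLTR13B2 and 73.5% in RLTR13B3, but 32.4% in RLTR13D3A1 and 12.5% in RLTR13C3. Of the 361 copies of RLTR13C3, 272 (75.3%) were on the Y chromosome. Values are sums over bins, so a copy that touches more bins ranks higher. Across the 9468 copies, naive WT LAP2B and LMNB1 had a Spearman correlation of 0.935, and naive WT LAP2B and IGG one of 0.771; the copies share libraries, bins and copy length, and these are descriptions.

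From naive cells to EpiLCs, the LMNB1 change was below 0 in 18 of 22 RLTR13 subfamilies and above 0 in 4. In the model of the 6 LMNB1 libraries, 7 of 22 RLTR13 subfamilies passed the threshold of an adjusted p of 0.05 (limma, Benjamini-Hochberg over all families), all lower, while 0.725% of the 1103 families tested passed. They were 7 of the 8 families called, the other being UCON94. The called subfamilies were RLTR13B2, RLTR13B1, RLTR13D4, RLTR13C2, RLTR13C1, RLTR13B4 and RLTR13D5. The median log2 change over the 22 subfamilies was -0.17, against -0.00066 over all families. RLTR13B2 had LMNB1 levels of 2.14, 2.56 and 2.20 in naive cells and of 1.64, 1.66 and 1.65 in EpiLCs, without overlap. This was a log2 change of -0.45 (SE 0.067, adjusted p = 0.0395), the lowest of all families. RLTR13D5 went from 1.61, 1.60 and 1.56 to 1.35, 1.40 and 1.35 (log2 change -0.21, SE 0.029, adjusted p = 0.0306). RLTR13D6, with a log2 change of -0.38 (SE 0.061), missed the threshold (adjusted p = 0.0587), although its libraries did not overlap. None passed with the median over copies, with a replicate block, on the spike-in scale (the same 6 libraries undivided), or without any 1 of 5 of the 6 libraries, whereas all 22 passed, lower, when libraries were divided by their mean family, a scale on which 95.8% of all families were called lower and the median of all families was -0.28.

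The IGG background over RLTR13 was also lower in EpiLCs. The ratio of EpiLC to naive level in WT cells had a median over the 23 subfamilies of 0.865 for LAP2B, 0.873 for LMNB1 and 0.940 for IGG, against 1.00, 1.00 and 0.993 over all families. RLTR13B2 had the lowest ratio in each, with 0.655, 0.716 and 0.745. Its IGG levels were 1.96, 1.89 and 1.82 in naive cells and 1.36, 1.44 and 1.43 in EpiLCs. RLTR13D6 had IGG means of 1.93 in naive cells and 1.53 in EpiLCs. LAP2B in WT cells, which the choice of RLTR13 used, was lower in EpiLCs without overlap of libraries in 17 of 22 subfamilies and higher in 1, against 20.4% and 20.9% of all families. By spike-in values 4 of 22 did not overlap, all lower, against 0.725% lower and 0.0907% higher among all families. How much of the fall in LAP2B or LMNB1 was shared with the background was not tested.

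**Figure D2:**
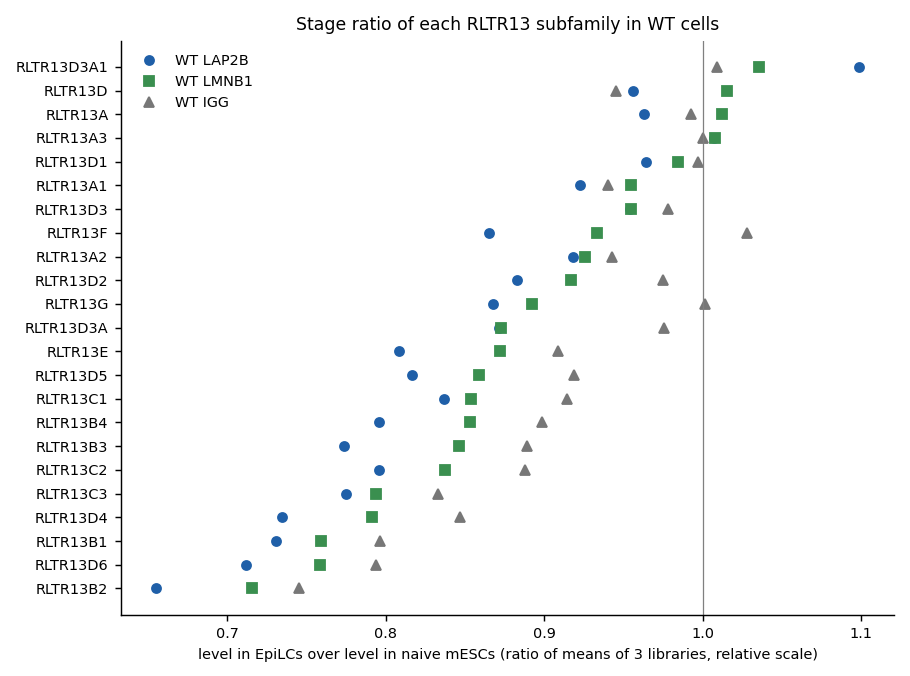
Ratio of the EpiLC to the naive level in WT cells (x axis, ratio of means of 3 libraries on the relative scale) for each of the 23 RLTR13 subfamilies (y axis, sorted by LMNB1), for LAP2B, LMNB1 and IGG. Most points lie left of 1, RLTR13B2 is lowest for each antibody, and the IGG ratios (median 0.940) are nearer to 1 than the LAP2B ratios (median 0.865).

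Between the stages, LAP2B was lower over nearly all RLTR13 subfamilies in TKO EpiLCs, with fewer calls in QKO and LBRKO cells. No library of these mutants took part in the choice. In TKO cells 21 of 22 subfamilies were called lower and none higher, against 32.9% and 16.4% of all families, and the median log2 change was -0.34 against -0.020. In QKO cells 12 were lower and 2 higher, against 36% and 26.1%, with a median of -0.18. In LBRKO cells 9 were lower and 2 higher, against 12.3% and 14.4%, with a median of -0.055. Related families also fell in TKO cells, where 14 of 15 RLTR9 and RLTR17 families (median log2 change -0.30), 20 of 24 ETn, MusD and ERVB families (-0.23), 15 of 19 IAP families (-0.19) and 184 of 242 other ERVK families (-0.17) were lower. In QKO cells the medians of these 4 sets were -0.14, -0.036, 0.15 and -0.085, and in LBRKO cells 0.068, 0.11, 0.12 and 0.019. The 11 calls in LBRKO cells became 6 to 8 when 1 library was left out, and 7 or fewer without any LBRKO library but the second naive one. With the median over copies in place of the mean, 12 subfamilies were called in TKO, 3 in QKO and 2 in LBRKO cells, all lower, against 12.1%, 5.89% and 0.181% of all families. RLTR13B2 had the largest fall in each of the 3 genotypes. In TKO cells its levels were 4.46, 3.5 and 4.06 in naive cells and 1.44, 1.43 and 1.44 in EpiLCs, a log2 change of -1.41 (SE 0.074, adjusted p = 1.16e-10) that was the lowest of all families tested. In QKO cells they were 3.58, 2.81 and 3.38 against 1.49, 1.38 and 1.41 (log2 change -1.13, SE 0.074, adjusted p = 1.98e-09). In LBRKO cells they were 2.35, 2.31 and 2.46 against 1.42, 1.37 and 1.43 (log2 change -0.71, SE 0.074, adjusted p = 6.16e-06). The EpiLC levels of RLTR13B2 thus lay between 1.37 and 1.64 in all 4 genotypes, while the naive levels were spread from 2.29 to 4.46.

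RLTR13D6 ranked second lowest of all families in TKO cells, going from 4.02, 3.09 and 3.80 to 1.68, 1.72 and 1.62 (log2 change -1.06, SE 0.071, adjusted p = 1.38e-09). Its change was -0.49 in QKO cells (adjusted p = 9.33e-06) and -0.18 in LBRKO cells, where it missed the threshold (adjusted p = 0.0707). RLTR13D5 fell in TKO cells, from 1.69, 1.47 and 1.61 to 1.15, 1.15 and 1.16 (log2 change -0.43, SE 0.037, adjusted p = 3.75e-08), and in LBRKO cells (log2 change -0.11, adjusted p = 0.0448). In QKO cells it went from 1.26, 1.19 and 1.18 to 1.13, 1.14 and 1.17, which did not pass (adjusted p = 0.115). The called rises that were largest were RLTR13D1 in LBRKO cells (log2 change 0.12, adjusted p = 0.0404) and RLTR13A3 in QKO cells (log2 change 0.13, adjusted p = 0.00158). These directions are relative to other families. With the spike-in scale, where the median of all families moved by 0.45 in TKO, 0.55 in QKO and 0.013 in LBRKO cells, 1 subfamily was called lower and none higher in TKO cells, against 0.0907% and 34% of all families. In QKO cells 10 were higher and none lower on that scale, against 79.6% and 0%, and none was called in LBRKO cells, where 0% of families passed. Divided by the mean family, 21, 12 and 18 were lower and none was higher, against 43.8%, 30.8% and 73.3% of all families lower and 0.181%, 0.907% and 0.635% higher. On each of the 3 scales the median subfamily was below the median of all families in all 3 genotypes.

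In naive cells the mutants differed from each other over RLTR13 (the plot of differences between genotypes). LAP2B was higher in TKO than in LBRKO cells in 20 of 22 subfamilies and lower in none, against 37.6% and 24.8% of all families, with a median log2 difference of 0.32 against 0.022. It was lower in QKO than in TKO cells in 18 and higher in 1, against 36.6% and 32.6%, with a median of -0.30 against -0.013. QKO and LBRKO cells differed less, with 7 subfamilies higher and 1 lower in QKO, against 39.1% and 25.7%, and a median of 0.028 against 0.018. With the median over copies, 19 were higher in TKO-LBRKO and none lower, against 26.5% and 6.07% of all families. In QKO-TKO 17 were then lower and 1 higher, against 28.2% and 7.43%, and in QKO-LBRKO 4 were higher and none lower, against 13.3% and 5.35%. The 3 contrasts share their libraries and are not independent. The first 2 contrasts share the TKO libraries with opposite sign.

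**Figure D3:**
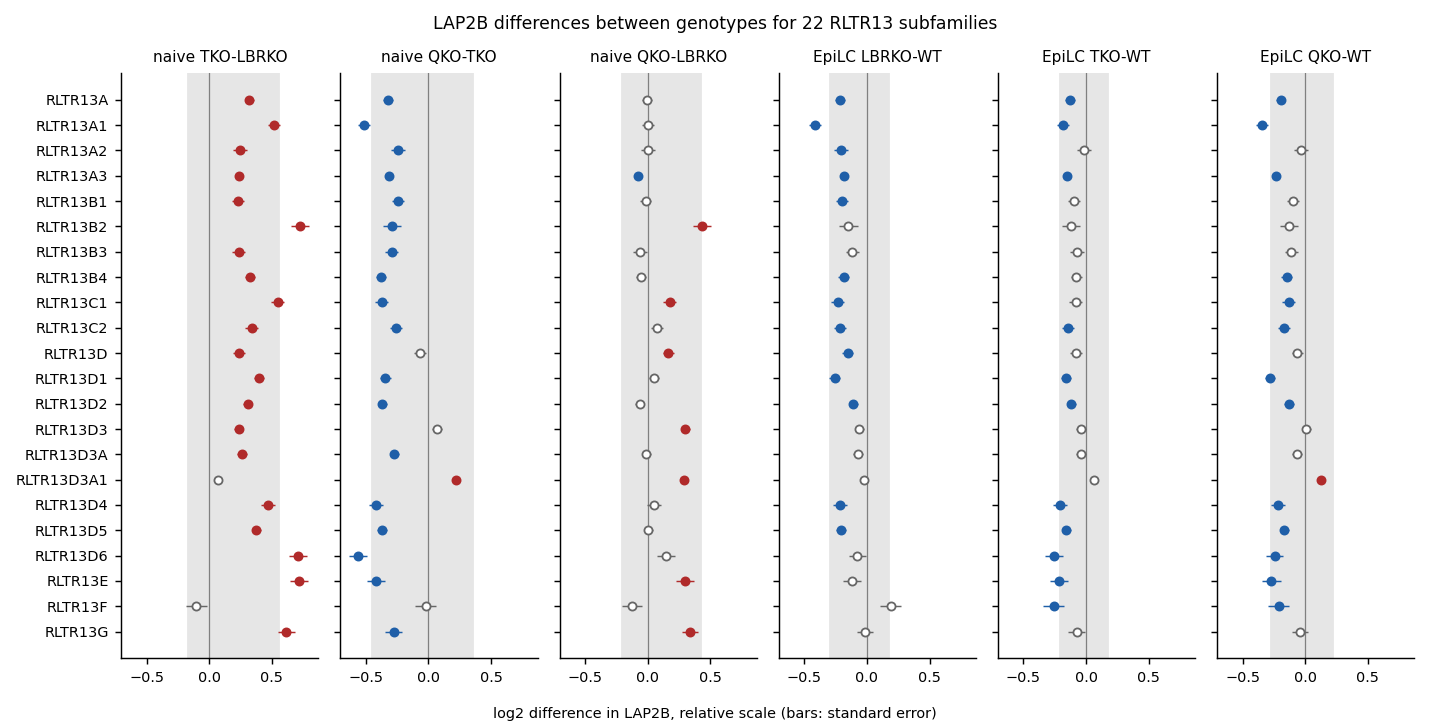
Log2 differences in LAP2B between genotypes on the relative scale (x axis; bars, standard error) for 22 RLTR13 subfamilies (y axis), in naive cells (first 3 panels) and EpiLCs (last 3). Filled red and blue points passed the threshold (higher and lower), open points did not, and the grey band holds the middle 90% of all families: in naive TKO-LBRKO 20 subfamilies are filled red, and in naive QKO-TKO 18 are filled blue and RLTR13D3A1 alone is red.

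RLTR13D6 had naive LAP2B levels of 2.22, 2.09 and 2.22 in LBRKO cells. The TKO libraries stood at 4.02, 3.09 and 3.80 and the QKO libraries at 2.65, 2.21 and 2.42. TKO lay above both other mutants in every library, and QKO and LBRKO overlapped. The log2 difference was 0.71 for TKO-LBRKO (SE 0.071, adjusted p = 6.79e-08) and -0.56 for QKO-TKO (SE 0.071, adjusted p = 1.15e-06), the largest fall in RLTR13. For QKO-LBRKO it was 0.15 (SE 0.071, adjusted p = 0.0785). RLTR13B2 had the largest difference between TKO and LBRKO, with 4.46, 3.5 and 4.06 against 2.35, 2.31 and 2.46 (log2 difference 0.73, SE 0.074, adjusted p = 8.01e-08). In QKO cells, at 3.58, 2.81 and 3.38, it was also above every LBRKO library (log2 difference 0.43, SE 0.074, adjusted p = 5.75e-05). RLTR13D5 stood at 1.24, 1.16 and 1.21 in LBRKO cells, with TKO libraries at 1.69, 1.47 and 1.61 and QKO libraries at 1.26, 1.19 and 1.18. Its differences were 0.38 for TKO-LBRKO (adjusted p = 5.96e-08) and -0.37 for QKO-TKO (adjusted p = 5.95e-08), and 0.0056 for QKO-LBRKO (SE 0.037, adjusted p = 0.904). The naive TKO libraries varied most, the second being the lowest of the 3 in RLTR13D6, RLTR13B2 and RLTR13D5, yet leaving out any 1 library left 19 to 21 subfamilies called in both contrasts with TKO. Each SE and adjusted p rests on a spread shared by all LAP2B groups. They can be too small for contrasts with naive TKO, also between stages.

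RLTR13D3A1 was the only subfamily called higher in QKO than in TKO cells. Its naive levels were 1.26, 1.20 and 1.22 in TKO, 1.5, 1.41 and 1.43 in QKO and 1.17, 1.15 and 1.18 in LBRKO cells. QKO lay above the other mutants in every library (QKO-TKO log2 difference 0.22, SE 0.031, adjusted p = 3.55e-06), but on the spike-in scale the difference was -0.52. It was also the member with the lowest LAP2B over IGG and among those with the smallest share of copies in the top LMNB1 quartile. The 1 subfamily called lower in QKO than in LBRKO cells was RLTR13A3 (log2 difference -0.078, SE 0.032, adjusted p = 0.0404), which lost that sign when the median over copies was used (0.041).

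The directions in naive cells are relative to other families, whose median fell in each of these contrasts on the spike-in scale. On that scale no subfamily was called higher and 16 were called lower in TKO-LBRKO, against 0.181% and 92.9% of all families. All 22 were lower in QKO-TKO, against 94.5% (0% higher), and in QKO-LBRKO, against 99.9% (0.0907% higher). With libraries divided by the mean family, 3 were higher and 4 lower in TKO-LBRKO, against 3.81% and 78.5% of all families. In QKO-TKO 1 was higher and 10 were lower on that scale, against 22.8% and 11.8%, and in QKO-LBRKO 14 were lower and none higher, against 73% and 2.18%. Relative to the median of all families, the median subfamily was higher by 0.30, 0.27 and 0.27 in TKO-LBRKO on the relative, spike-in and mean scales, and stood at -0.29, -0.32 and -0.27 in QKO-TKO. In QKO-LBRKO the sign changed with the scale (0.011, -0.043 and -0.0017). Other ERVK families, which can include the sets named next, moved in the same directions, with a median log2 difference of 0.21 in TKO-LBRKO and -0.11 in QKO-TKO. IAP families had medians of 0.59 and -0.40, RLTR9 and RLTR17 families of 0.36 and -0.27, and ETn, MusD and ERVB families of 0.53 and -0.29. No test set RLTR13 against these families, here or in the comparisons of stages or EpiLCs.

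Against naive WT, whose LAP2B led to the choice of RLTR13, differences are given without a test. LBRKO cells were lower without overlap of libraries in 18 of 22 subfamilies and higher in 1, against 39.4% and 34.7% of all families, with a median log2 difference of -0.28. QKO cells were lower in 13 and higher in 3, against 39.2% and 41.5%, with a median of -0.20. TKO cells were higher in 8 and lower in none, against 37.4% and 22.8%, with a median of 0.051. RLTR13D6 was at 2.18 ± 0.077 in LBRKO, 2.42 ± 0.22 in QKO and 3.64 ± 0.49 in TKO cells, beside 2.84 ± 0.064 in WT. RLTR13D5 was at 1.20 in LBRKO, 1.21 in QKO and 1.59 in TKO cells, beside 1.59 in WT. RLTR13B2 was close to WT (2.40) in LBRKO (2.37) and above it in QKO (3.26) and TKO (4.01). By spike-in values the libraries of 10, 22 and 21 subfamilies were lower without overlap in LBRKO, QKO and TKO, against 19.4%, 99.7% and 98.3% of all families. None was higher, against 0.544%, 0% and 0%.

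In EpiLCs the WT libraries took no part in the choice, and each mutant was compared with them. Because the study did not rely on EpiLC LAP2B for lamina contact, these are differences in LAP2B signal only. In LBRKO cells 13 of 22 subfamilies were called lower and none higher, against 28.6% and 20.6% of all families, with a median log2 difference of -0.17 against -0.012. In TKO cells 11 were lower and none higher, against 18.9% and 15.9%, with a median of -0.12. In QKO cells 13 were lower and 1 higher, against 26.7% and 24.2%, with a median of -0.14. Families of other sets were called lower as well. Of 15 RLTR9 and RLTR17 families 4, 11 and 12 were called lower in LBRKO, TKO and QKO EpiLCs. Of 24 ETn, MusD and ERVB families 18, 6 and 12 were, of 19 IAP families 19, 2 and 6, and of 242 other ERVK families 125, 73 and 95. The counts of RLTR9 and RLTR17 families in LBRKO and of IAP families in TKO did not exceed the shares of all families (28.6% and 18.9%). Most of the RLTR13 calls did not hold with the median over copies, which gave 9 subfamilies in LBRKO, 0 in TKO and 2 in QKO cells, all lower, against 13.1%, 0.0907% and 7.34% of all families. The 3 mutants share the WT libraries, so their agreement is no independent evidence. RLTR13A1 had the largest fall in 2 of them. WT libraries had levels of 1.83, 1.70 and 1.76, LBRKO libraries of 1.28, 1.30 and 1.31, QKO libraries of 1.39, 1.29 and 1.43 and TKO libraries of 1.52, 1.55 and 1.53, so every mutant library lay below every WT library. The log2 difference was -0.42 for LBRKO (SE 0.048, adjusted p = 1.91e-06) and -0.34 for QKO (SE 0.048, adjusted p = 9.42e-06).

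RLTR13F had the largest fall in TKO EpiLCs, with 1.87, 1.84 and 1.67 against 2.27, 2.16 and 2.06 in WT (log2 difference -0.26, SE 0.083, adjusted p = 0.0204). RLTR13D6 had EpiLC levels of 2.14, 1.96 and 1.96 in WT, of 1.68, 1.72 and 1.62 in TKO and of 1.73, 1.71 and 1.63 in QKO cells. Both mutants fell below WT, by log2 differences of -0.25 in TKO (adjusted p = 0.00939) and -0.25 in QKO (adjusted p = 0.00779). In LBRKO cells, at 1.92, 1.90 and 1.91, the libraries lay just below those of WT and the difference of -0.075 did not pass (adjusted p = 0.398). RLTR13D5 fell in all 3 mutants, from 1.35, 1.29 and 1.25 in WT to means of 1.11 (LBRKO), 1.15 (TKO) and 1.14 (QKO) (adjusted p = 1.61e-04, 0.00303 and 0.00123). RLTR13D3A1 was again the exception and rose in QKO EpiLCs, to 1.26, 1.26 and 1.32 from 1.16, 1.17 and 1.16 (log2 difference 0.12, SE 0.031, adjusted p = 0.00276), a difference that was -0.94 on the spike-in scale. On that scale 0, 7 and 22 subfamilies were called lower in LBRKO, TKO and QKO EpiLCs, against 0%, 10.9% and 99.9% of all families, and none was called higher, against 0.0907%, 0.0907% and 0%. With libraries divided by the mean family, 2 were called higher and none lower in LBRKO, against 55.3% and 0.725% of all families. On that scale 2 were lower and none higher in TKO, against 5.17% and 0.272%, and none was called in QKO, where 1.27% were lower and 3.99% higher. The median subfamily stayed below the median of all families in each mutant on all 3 scales. Without the first EpiLC WT library, 5 subfamilies rather than 11 passed in TKO cells.

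The QKO-TKO difference was lower in naive cells than in EpiLCs. The difference between the stages was itself tested, as an interaction chosen after the values were seen, and 18 of 22 subfamilies passed with a lower and 1 with a higher QKO-TKO difference in naive cells, against 26.3% and 22.8% of all families. In RLTR13D6 the QKO-TKO difference in naive cells minus that in EpiLCs was -0.57 (log2, SE 0.10, adjusted p = 1.45e-04), and RLTR13D3A1 was the 1 with the opposite sign (0.16, adjusted p = 0.00443). With the spike-in scale no subfamily passed this test (0% of all families). The median interaction was then -0.36, against -0.091 over all families and -0.25 on the relative scale, and 21 of 22 were below 0. When libraries were divided by their mean family 4 passed, lower (8.25% of all families), and with the median over copies 5 passed, lower (8.43%).

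Within RLTR13, copies with more LMNB1 also had more LAP2B, and in naive cells the gradient was shallowest in QKO. The copies of each stage were parted into 4 quartiles by their LMNB1 in WT cells, and the lamina contrast is the log2 ratio of the mean in the top quartile to that in the bottom quartile of a library. Naive WT cells had a contrast of 2.76 ± 0.13 (SD, n = 3), LBRKO cells of 2.45 ± 0.15, TKO cells of 2.54 ± 0.19 and QKO cells of 1.67 ± 0.068, beside 1.68 ± 0.15 for IGG. LBRKO lay below WT in every library, and TKO overlapped WT. With the median in each quartile, the TKO libraries (2.06 to 2.58) lay below every WT library (2.64 to 3.06). The QKO libraries (1.59 to 1.72) lay below all LBRKO and TKO libraries (2.28 to 2.67) and within the range of IGG (1.56 to 1.85). Both statements changed with the median in each quartile: the QKO libraries (1.75 to 2.09) then lay above every IGG library (1.67 to 1.74) and overlapped TKO (2.06 to 2.58). The bottom quartile of QKO cells, with means of 1.08, 0.946 and 1.1, was above that of WT cells, with 0.666, 0.652 and 0.781, while its top quartile, at 3.57, 2.85 and 3.53, was below the 4.59, 4.8 and 4.82 of WT. In naive TKO cells the top quartile reached 5.38, 3.99 and 5.13. No p is given for this score because it is taken over members chosen by their level in naive WT.

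WT EpiLCs had a contrast of 2.19 ± 0.11, LBRKO EpiLCs of 2.3 ± 0.039, TKO EpiLCs of 1.74 ± 0.042 and QKO EpiLCs of 1.62 ± 0.054, beside 1.58 ± 0.14 for IGG. TKO and QKO libraries lay below those of WT and LBRKO, and LBRKO overlapped WT. All TE copies showed lower contrasts in each LAP2B group, with 2.19, 1.28, 1.43 and 0.279 in naive WT, LBRKO, TKO and QKO cells and 1.13 for naive IGG. The mean LMNB1 contrast, set by its own ranking, was 3.00 over naive RLTR13 copies. Because values are sums over bins, copies that touch more bins raise every contrast, IGG included. Across copies, the Spearman correlation of LAP2B with WT LMNB1 was 0.935, 0.729, 0.797 and 0.547 in naive WT, LBRKO, TKO and QKO cells, and that with WT IGG was 0.771, 0.797, 0.802 and 0.768.

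**Figure D4:**
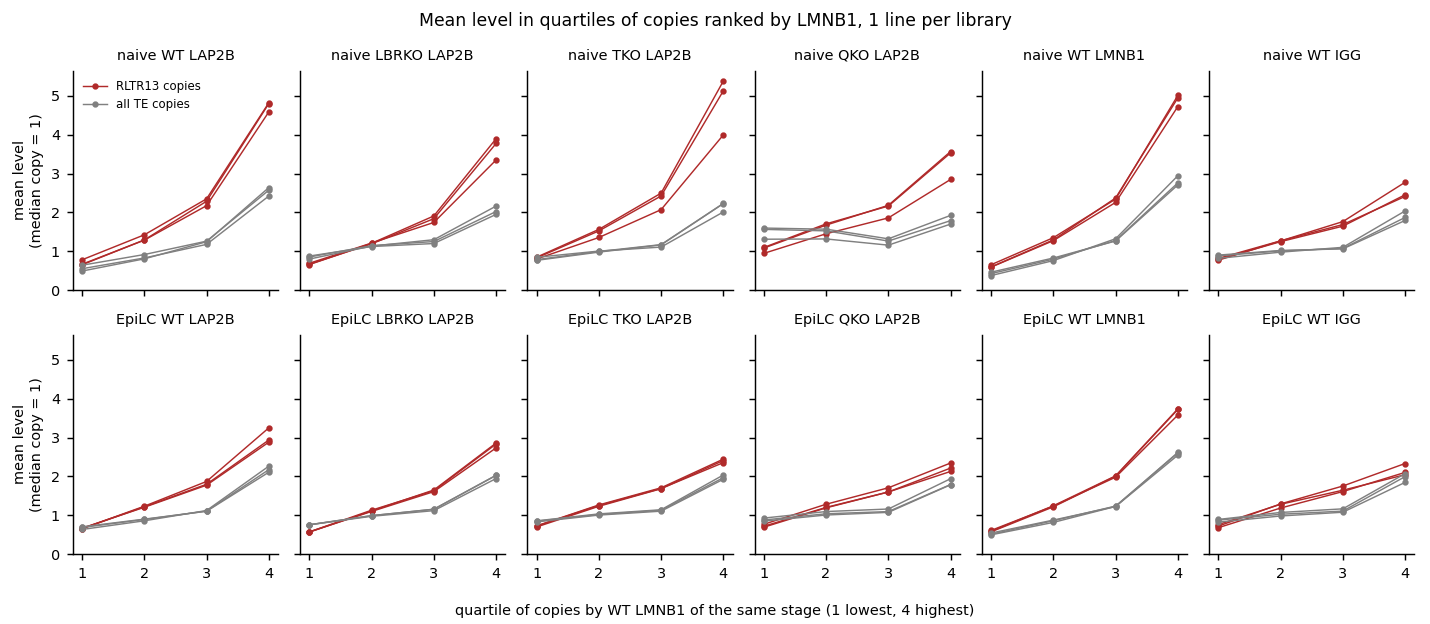
Mean level (y axis, the library's median TE copy = 1, from 0) in 4 quartiles of copies, ranked by their LMNB1 in WT cells at that stage (x axis), with a line for each of 3 libraries per group, for RLTR13 copies (red) and all TE copies (grey) in naive cells (top) and EpiLCs (bottom). The red lines rise in every panel; in naive QKO cells they run from 0.946 to 1.1 up to 2.85 to 3.57, where the grey lines have a log2 contrast of 0.279.

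The same contrasts were tested copy by copy. Of 9468 RLTR13 copies, 8329 passed the filter on low values among 3414048 TE copies tested. In naive QKO-TKO 1294 were called lower (15.5%) and 464 higher (5.57%), against 5.3% and 11.6% of all copies. In naive TKO-LBRKO 1115 were higher (13.4%) and 221 lower (2.65%), against 3.03% and 5.22%. In naive QKO-LBRKO 769 were higher and 529 lower (9.23% and 6.35%), against 8.92% and 4.94%. In EpiLCs the calls were fewer: 107 higher and 167 lower in LBRKO (against 1.57% and 0.567% of all copies), 4 and 16 in TKO (against 0.0366% and 0.0271%) and 50 and 193 in QKO cells (against 0.992% and 0.502%). These EpiLC counts rested on single libraries: leaving out 1 at a time gave 110 to 199 copies rather than 274 in LBRKO, 9 to 32 rather than 20 in TKO and 63 to 212 rather than 243 in QKO cells. Counts moved by over 1.5 times without any LBRKO or QKO library or WT library 1 or 3 for LBRKO-WT and QKO-WT, and without TKO library 1 or 2 or WT library 1 or 2 for TKO-WT. By subfamily, the share called lower in naive QKO-TKO ran from 3.66% in RLTR13D to 29.9% in RLTR13D6, where 236 of 788 copies were lower and 32 higher. In RLTR13D3A1 72 of 538 copies were higher and 29 lower (13.4% and 5.39%), near the shares of all copies. In naive TKO-LBRKO the largest shares called higher were 28.5% in RLTR13E and 27.2% in RLTR13D6. In spike-in units 33 of the 8329 copies were higher and 4135 lower in naive QKO-TKO, against 1.06% and 24.7% of all copies. On that scale 226 were higher and 1701 lower in TKO-LBRKO, against 0.423% and 32.4%, and 40 and 6422 in QKO-LBRKO, against 0.51% and 73.8%. For EpiLCs the spike-in counts were 47 higher and 117 lower in LBRKO-WT (0.911% and 0.416% of all copies), 3 and 277 in TKO-WT (0.032% and 1.17%), and 4 and 5041 in QKO-WT (0.0822% and 40.3%). Divided by the mean copy, 579 were higher and 806 lower in naive QKO-LBRKO, against 7.11% and 7.82% of all copies, and 289 and 2022 in QKO-TKO, against 7.88% and 9.15%.

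The copies whose sequence is shown did not all move with their subfamily. RLTR13D6_dup732 had naive LAP2B levels of 2.73, 2.62 and 3.23 in TKO and of 0.429, 0.556 and 0.300 in QKO cells, with 3 to 10 reads in the latter, and fell (log2 difference -2.51, SE 0.37, adjusted p = 2.42e-05). RLTR13D6_dup595 had levels of 8.80, 5.75 and 5.62 in TKO and of 9.64, 5.11 and 10.2 in QKO cells, which overlapped (log2 difference 0.27, SE 0.31, adjusted p = 0.585). RLTR13D2_dup64 rose from 3.60, 2.75 and 4.15 to 8.93, 6.28 and 7.50 (log2 difference 1.1, SE 0.38, adjusted p = 0.0406). The bins of all 3 copies hold the block shown in capitals, and the levels of these copies in EpiLCs lay between 0.667 and 3.81 in every LAP2B library. Of the 3 RLTR13C2 copies, RLTR13C2_dup781 fell from 3.73 ± 0.55 in naive TKO to 1.30 ± 0.26 in naive QKO cells (SD, n = 3; adjusted p = 0.00122 by limma). RLTR13C2_dup260 rose from 1.13 ± 0.29 to 3.54 ± 0.78 (adjusted p = 0.00896 by limma). RLTR13C2_dup209 was also called higher, at 0.518 ± 0.26 and 1.54 ± 1.02 (log2 difference 1.29, adjusted p = 0.0384 by limma), but its libraries overlapped and it had 2 to 10 reads in TKO and 8 to 26 in QKO cells.

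The largest called rises and falls without overlap in naive QKO-TKO were at 4 single copies. RLTR13B1_dup971 (chromosome 15) had 21, 2 and 34 reads in TKO and 146, 144 and 104 in QKO cells (log2 difference 3.10, adjusted p = 1.74e-05). RLTR13C2_dup362 (chromosome 6) had 26, 4 and 8 against 129, 127 and 57 reads (log2 difference 2.98, adjusted p = 9.13e-06). In the other direction RLTR13F_dup73 (chromosome X) had 28, 23 and 26 reads in TKO and 4, 2 and 0 in QKO cells (adjusted p = 8.7e-06), and RLTR13D3A1_dup74 (chromosome 3) had 34, 8 and 23 against 0, 4 and 2 (adjusted p = 2.37e-04). In naive WT LAP2B these copies had 22, 10 and 32, 16, 16 and 12, 40, 20 and 33, and 14, 10 and 22 reads, in the same order.

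The 4 called copies with the largest changes in EpiLC QKO-WT had few reads in either WT or QKO cells. RLTR13E_dup457 (chromosome 13) had no reads in the 3 EpiLC WT libraries and 34, 35 and 37 in QKO cells (adjusted p = 1.14e-06), with 15, 36 and 41 in EpiLC TKO, 76, 24 and 65 in naive TKO and 134, 104 and 92 in naive QKO cells. RLTR13E_dup456, also on chromosome 13, had 0, 2 and 1 reads in EpiLC WT and 42, 40 and 46 in QKO cells (adjusted p = 2.07e-05). EpiLC TKO cells had 10, 19 and 25 reads there, between WT and QKO without overlap. Neither copy had more than 6 reads in any WT or LBRKO library of any antibody, IGG and LMNB1 included. RLTR13E_dup513 (chromosome 17) went the other way, with 38, 47 and 26 reads in EpiLC WT and 0, 2 and 0 in QKO cells (adjusted p = 0.00177) and at most 2 reads in every TKO and QKO library. RLTR13D5_dup253 (chromosome 8) had 58, 32 and 22 reads in EpiLC WT, 4, 0 and 0 in QKO cells (adjusted p = 9.08e-04), 2, 8 and 1 in TKO cells and 10, 11 and 12 in LBRKO cells. The filter on low values used the mean over all LAP2B libraries. All 4 copies owe that mean mostly to the groups where they were high, so their p-values add no support to the read counts. The genotype and the line the cells came from cannot be told apart in these comparisons, and counts of 0 leave no fold change to give.

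**Figure D5:**
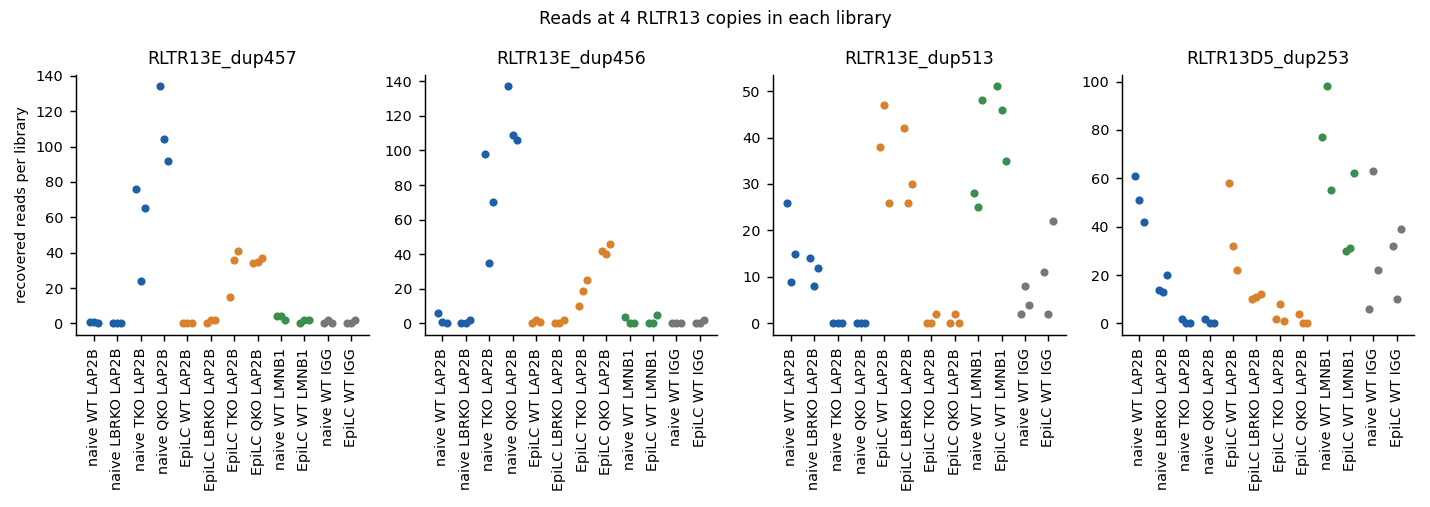
Recovered reads (y axis, from 0) in each of 36 libraries (points) at the 4 RLTR13 copies with the largest called changes in EpiLC QKO-WT, with the groups on the x axis. RLTR13E_dup457 and RLTR13E_dup456 have at most 6 reads in all WT and LBRKO libraries and 10 to 137 in TKO and QKO, and RLTR13E_dup513 has at most 2 in TKO and QKO.

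A chromosome could be given to 9320 RLTR13 copies. The Y chromosome held 10.3% of them, against 2.77% of all TE copies, and the X chromosome 9.36%, against 6.44%. On chromosome 6 the mean level of EpiLC LAP2B over RLTR13 copies was 2.53 ± 0.047 in LBRKO and 2.17 ± 0.086 in WT cells (SD, n = 3). All TE copies of that chromosome moved alike in EpiLCs, with 1.76 and 1.38. In naive cells they were at 1.96 and 1.49, while RLTR13 copies were at 2.90 ± 0.16 in LBRKO and 2.94 ± 0.11 in WT cells. On the Y chromosome the mean over RLTR13 copies was 0.416 ± 0.0044 in LBRKO and 0.527 ± 0.011 in WT EpiLCs, and all TE copies of Y again moved alike (0.311 and 0.408). A single chromosome 6 copy, RLTR13F_dup38, made up 14.1% of the sum over RLTR13F in naive LBRKO cells, and without it the mean of RLTR13F there was 2.15 rather than 2.48. With autosomes other than 6 and 8 alone, an alternative added after seeing the data, the subfamily counts stayed within 1.5 times of those above except for LBRKO EpiLC-naive, where 7 rather than 11 passed.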

How the data were processed

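CUT&RUN values over TE copies were used from 36 libraries (24 LAP2B, 6 LMNB1, 6 IGG). Another 2 H3K9me3 samples were not analysed here. The authors aligned read pairs to mm39 with Bowtie2 2.3.5.1, kept primary alignments, removed duplicates with SAMtools 1.10 and deposited coverage signal made with deepTools, as RPKM times a factor from sacCer3 spike-in reads, separately for each antibody. The study describes the TE signal it plots as from uniquely mapped reads; whether the tables used here were made so is not given in the sources used here. Step sizes in the deposited signal match sums over 1 kb bins, although the methods name wider bins for TEs; copy values and the placement of copies here rest on 1 kb. In each library 99.9997% to 99.9999% of the values above 0 lay within 0.05 reads of a whole multiple of the value of 1 read.

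Family means over copies were divided by the library's median family, 0.1 was added, and log2 values were tested with limma 3.58.1 (R 4.3.3; trend, two-sided, Benjamini-Hochberg over all families or copies, adjusted p of 0.05). The 24 LAP2B libraries shared 1 fit, and the lowest share of 0.1 by mean value was left out (1103 of 1225 families tested; RLTR13C3 was the 1 member left out). The alternatives were edgeR 4.0.16 on recovered reads, other scales, pseudocounts and filters, medians over copies, a replicate block, a fit of only the 2 groups compared and leaving out libraries. The fits were also run on simulated data, and the outcome is not given here. Sequences came from GRCm39 with BLAST 2.17.0+ and Python 3.11.15.

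The members and lists were chosen with earlier results of these data known. Named subfamilies were RLTR13D6 (named in the study), RLTR13D5, the 2 highest and the lowest by naive WT LAP2B over IGG, and the largest called rise and fall of each contrast. Named copies were the 2 largest called rises and falls without overlap in naive QKO-TKO and in EpiLC QKO-WT. Other copies are those whose sequence is shown. Nothing in the labels says that replicates were separate cultures, so p-values measure the spread between libraries, which may be technical.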

Additional observations from a re-analysis of the deposited data

Results flagged for a closer look

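The QKO-TKO difference in LAP2B differed between naive cells and EpiLCs in 19 RLTR13 subfamilies, by an interaction tested with limma over all families. Of these, 18 were lower and 1 was higher in naive cells, against 26.3% lower and 22.8% higher among all families. The interaction was -0.57 in RLTR13D6 (log2, naive minus EpiLC, 3 libraries per group) and 0.16 in RLTR13D3A1, which had the opposite sign. On the spike-in scale 0 of 22 subfamilies passed (0% of all families), although the median interaction was -0.36, against -0.25 on the relative scale. With the median over copies 5 passed, lower, against 8.43% lower and 2.54% higher among all families. Groups of 3 libraries are too small for the check of single outlying samples, and none was made.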

How the results depend on the processing

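Calls over RLTR13, and some of the directions, depended on how libraries were scaled, and the cause was not tested. On the spike-in scale the subfamilies called were 22 in naive QKO-LBRKO, 0 in EpiLC LBRKO-WT, 7 in EpiLC TKO-WT, 22 in EpiLC QKO-WT, 0 in LBRKO EpiLC-naive, 1 in TKO EpiLC-naive, 0 for LMNB1 and 0 for the interaction. The copies called were 4168 in naive QKO-TKO, 6462 in QKO-LBRKO, and 164, 280 and 5045 in EpiLC LBRKO-WT, TKO-WT and QKO-WT. The medians against naive WT were -0.45 (LBRKO), -1.03 (TKO) and -2.01 (QKO). Signs turned in RLTR13D3A1 (QKO-TKO -0.52, EpiLC QKO-WT -0.94), in naive QKO-LBRKO for RLTR13D6, RLTR13D5 and RLTR13B2 (-1.55, -1.59 and -1.29), in naive TKO-LBRKO for the same subfamilies (-0.23, -0.53 and -0.22), and between stages for RLTR13D5 in TKO (0.065), RLTR13D6 in QKO (0.14) and RLTR13D5 in QKO (0.51).

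With libraries divided by the mean family, the subfamilies called were 11 in naive QKO-TKO, 14 in QKO-LBRKO, 7 in TKO-LBRKO, 2 in EpiLC LBRKO-WT, 2 in TKO-WT, 0 in QKO-WT, 18 in LBRKO EpiLC-naive, 22 for LMNB1 and 4 for the interaction. The medians against naive WT were -0.12 (LBRKO), -0.22 (TKO) and -0.38 (QKO). When libraries were divided by the mean copy, 31 copies were called in EpiLC TKO-WT. Of these, 6 were higher and 25 lower, against 0.0489% and 0.0513% of all copies. Signs turned for RLTR13D5 in naive QKO-LBRKO (-0.30), naive TKO-LBRKO (-0.047) and EpiLC LBRKO-WT (0.026), and for RLTR13D1 in LBRKO EpiLC-naive (-0.13).

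With the median over copies in place of the mean, the subfamilies called were 4 in naive QKO-LBRKO, 0 in EpiLC TKO-WT, 2 in EpiLC QKO-WT, 2, 12 and 3 in LBRKO, TKO and QKO EpiLC-naive, 0 for LMNB1 and 5 for the interaction. The median against naive WT was -0.29 in QKO, RLTR13A3 turned to 0.041 in naive QKO-LBRKO, and the median subfamily level was 1.68, 1.65 and 1.43 for naive LAP2B, LMNB1 and IGG and 1.55, 1.59 and 1.40 for EpiLCs. Lamina contrasts from medians in each quartile were 1.95 (naive QKO), 2.33 (naive TKO), 2.80 (naive LMNB1), 1.69 (naive IGG), 2.18 (EpiLC LBRKO), 1.67 (EpiLC TKO) and 2.55 (EpiLC LMNB1). With quartiles ranked by the other stage they were 2.63, 1.78 and 2.69 (naive WT, QKO and LMNB1) and 2.03, 2.12, 1.49, 1.36, 2.35 and 1.32 (EpiLC WT, LBRKO, TKO, QKO, LMNB1 and IGG).

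A pseudocount of 0.01 gave 5 copies in EpiLC TKO-WT and 142 in QKO-WT. One of 0.5 gave 35 copies in EpiLC TKO-WT and a median of -0.22 against naive WT in LBRKO. Autosomes other than 6 and 8, chosen after seeing the data, gave 7 subfamilies in LBRKO EpiLC-naive and 13 copies in EpiLC TKO-WT. The shares of all families and copies called under these settings are not given, so these counts do not show a change particular to RLTR13. edgeR on recovered reads moved none of 14 counts by over 1.5 times. A fit of only the 2 LAP2B groups compared moved no subfamily count by over 1.5 times. Among its results for single named subfamilies, 29 kept their status, 1 call was gained and 1 was lost.

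Replicate numbers did not pair the samples (mean correlation of 84 same-number pairs 0.014, from -0.29 to 0.30, against -0.0065 for other pairs). A replicate block gave 0 LMNB1 subfamilies rather than 7 and moved no other count by over 1.5 times.

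Leaving out 1 library at a time gave 19 to 20 subfamilies in naive QKO-TKO, 20 to 21 in TKO-LBRKO, 7 to 10 in QKO-LBRKO, 11 to 13, 5 to 11 and 12 to 13 in EpiLC LBRKO-WT, TKO-WT and QKO-WT, 6 to 8, 20 to 21 and 13 to 15 in LBRKO, TKO and QKO EpiLC-naive, 17 to 19 for the interaction and 0 to 8 for LMNB1. The LMNB1 count was 0 without any of the 3 EpiLC libraries or naive libraries 1 and 3, and the LBRKO EpiLC-naive count was 6 or 7 without any LBRKO library but the second naive one. Copies ranged from 1174 to 1520 in naive QKO-TKO, 905 to 1140 in TKO-LBRKO, 877 to 1191 in QKO-LBRKO, 110 to 199 in EpiLC LBRKO-WT, 9 to 32 in TKO-WT and 63 to 212 in QKO-WT. Medians against naive WT ran from -0.29 to -0.26 (LBRKO), 0.024 to 0.13 (TKO) and -0.24 to -0.15 (QKO). With a median of 10 to 39 reads per copy, counting error limits single copies. Shares of all families and copies called without a library are not given, here or above.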

Other observations

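By a rule chosen after the values were seen, 5 RLTR13 copies had at most 3 reads in each of the 12 TKO and QKO libraries and a median of at least 10 reads in the WT and LBRKO LAP2B libraries. They were RLTR13A3_dup59 on chromosome 5 and RLTR13A1_dup175, RLTR13E_dup513, RLTR13B4_dup400 and RLTR13C2_dup811 on chromosome 17. They made up 0.0528% of RLTR13 copies, and 440 copies (0.0116%) of all TE copies met the rule. RLTR13E_dup457 on chromosome 13 met the reverse rule, 1 copy (0.0106%) against 256 (0.00675%) of all TE copies. The genotype and the line cannot be told apart here.

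RLTR13A2_dup68 on chromosome 8 was high with every antibody and in every group (means of 3 libraries, median copy = 1). Its LAP2B levels were 25.9, 32.8, 32.8 and 26.9 in naive WT, LBRKO, TKO and QKO cells and 16.1, 16.8, 22.6 and 20.1 in EpiLCs. Its levels in WT cells were 29.1 and 20.3 for LMNB1 and 19.0 and 16.7 for IGG (naive and EpiLC).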
